A study of Homo sapiens with 12 samples.

Results

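The genes described here are the forkhead transcription factors FOXO1, FOXO3 and FOXO4 and 7 genes known as their targets, FBXO32, KLHL24, SESN3, TXNIP, PIK3IP1, CCNG2 and BCL6. For each symbol the probe set annotated with that gene alone was taken, and all 10 were found among 18404 genes so measured. The series holds 12 Affymetrix arrays of total RNA from 2 established human melanoma cell lines, A375 (source labelled A375p) and A2058, whose labels both give BRAF V600E. Each line was treated with vemurafenib, a kinase inhibitor directed at mutant BRAF, or with its solvent DMSO, with 3 arrays in each of the 4 groups. The treatment text gives 1 µM for 72 h, renewed every 24 h, against an equal volume of DMSO; it names A375p cells alone and stands on all samples, so the A2058 dose and time are read from that shared text. Each is a single established line, and the labels do not say whether arrays came from separate cultures, so p-values measure the spread between arrays, which may be technical.

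FOXO factors act at the end of insulin and growth factor signalling. When the kinase AKT is active it phosphorylates them, and they leave the nucleus bound to YWHA adaptor proteins; when AKT activity drops they return and switch on genes of cell cycle exit, protein breakdown, stress defence and reduced growth signalling. Because this control acts on the protein, the mRNA of a FOXO factor does not report its activity, and most targets also answer to other factors. In melanoma, AKT and ERK signalling run side by side.

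A FOXO factor is known to bind GTAAACA and, more weakly, the insulin response sequence CAAAACA. TXNIP is also known as a target of the glucose sensor MondoA (MLXIP), whose sites hold the E-box CACGTG or E-box-like letters such as CACGAG. These 4 motifs were searched on both strands in the 250 bases before the gene's start, with sequences from the RefSeq promoter table of GRCh38.p14, which matched 9 of the 10 genes (all but FBXO32). TXNIP and SESN3 were called up in both lines, and their responses and those of KLHL24, CCNG2 and BCL6 differed between the lines. The 4 windows shown are those of TXNIP, KLHL24 and CCNG2, the genes with a match, and that of SESN3, which held none. They are written 5′ to 3′ on the gene's strand, with matches in capitals: TXNIP lies at chr1:145996580-145996829 (minus strand), KLHL24 at chr3:183635373-183635622 (plus), CCNG2 at chr4:77156957-77157206 (plus) and SESN3 at chr11:95232476-95232725 (minus).
TXNIP: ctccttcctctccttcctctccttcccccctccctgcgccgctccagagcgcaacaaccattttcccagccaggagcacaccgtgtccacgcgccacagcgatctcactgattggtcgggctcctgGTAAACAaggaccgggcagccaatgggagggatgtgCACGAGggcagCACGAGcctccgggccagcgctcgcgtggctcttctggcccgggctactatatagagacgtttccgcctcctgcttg
KLHL24: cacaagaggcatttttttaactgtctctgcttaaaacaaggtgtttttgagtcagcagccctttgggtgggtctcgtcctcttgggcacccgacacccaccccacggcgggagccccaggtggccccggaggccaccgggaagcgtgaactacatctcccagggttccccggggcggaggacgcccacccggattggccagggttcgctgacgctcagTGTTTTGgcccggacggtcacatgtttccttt
CCNG2: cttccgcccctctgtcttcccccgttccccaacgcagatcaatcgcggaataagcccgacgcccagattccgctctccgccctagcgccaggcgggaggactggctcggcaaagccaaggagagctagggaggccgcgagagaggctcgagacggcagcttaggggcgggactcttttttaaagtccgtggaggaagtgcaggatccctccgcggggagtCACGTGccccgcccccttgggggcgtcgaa
SESN3: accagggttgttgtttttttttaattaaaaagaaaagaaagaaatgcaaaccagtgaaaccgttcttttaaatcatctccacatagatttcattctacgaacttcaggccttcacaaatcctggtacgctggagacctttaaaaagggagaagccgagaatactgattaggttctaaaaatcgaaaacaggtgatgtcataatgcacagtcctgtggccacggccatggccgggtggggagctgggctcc
TXNIP held GTAAACA at -124 to -118 from its start and CACGAG at -88 to -83 and again at -77 to -72. KLHL24 held CAAAACA, read on the other strand, at -32 to -26, and CCNG2 held CACGTG at -30 to -25. The SESN3 window and those of FOXO1, FOXO3, FOXO4, PIK3IP1 and BCL6 held none of these letters. No match overlapped another. Of 35116 windows of this length in the table, 2.98% held GTAAACA, 4.3% CAAAACA, 6.34% CACGTG and 5.58% CACGAG. A match is a description of the letters and not evidence of binding.

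Values are the deposited log2 expression values, so a difference of 1 is a 2-fold change; levels of different genes are not compared, since each probe set has its own brightness. Replicate arrays correlated at r of 0.9978 to 0.9989 across genes, except in treated A375, where replicate 1 gave 0.9941 and 0.9939 against its fellows. Of 10 measured melanoma and melanocyte markers, 7 lay above the median gene value in both A375 groups, 9 in A2058 DMSO and 10 in A2058 vemurafenib; PMEL, MLANA and TYR were low in A375 (4.99, 4.44 and 4.57 under DMSO). Of the defining markers of other cell types, immune PTPRC (group means 4.15 to 4.17), epithelial EPCAM (4.48 to 4.55) and endothelial VWF (4.72 to 4.75) were low in all 4 groups. Other genes of those lists were not: CD68 had means of 8.32 to 10.16, LYZ of 4.79 to 7.83, KRT18 of 7.46 to 10.26 and KDR of 5.06 to 6.91. At most 3 of 7 fibroblast, 2 of 6 immune, 1 of 6 epithelial and 1 of 5 endothelial markers lay above the median gene value in any group.

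Summed levels (log2) of several of these lists differed with treatment without overlap of the arrays. The fibroblast sum went from 35.29 to 35.81 in A375 DMSO to between 37.94 and 38.82 with vemurafenib, where LUM went from 4.22 to 6.37; in A2058 its ranges overlapped (37.50 to 37.70 and 37.16 to 37.52). The epithelial sum was lower with vemurafenib in A375 (35.36 to 35.73 against 32.71 to 33.90) and in A2058 (33.29 to 33.88 against 31.64 to 32.06). KRT18 differed most in this list, going from 10.26 to 8.48 in A375 and from 8.87 to 7.46 in A2058. In A2058 the immune sum (33.92 to 34.33 against 31.95 to 32.48) and the endothelial sum (24.23 to 24.64 against 23.82 to 23.93) were lower too. The genes that differed most there were LYZ (6.91 to 4.79), while CD68 went from 8.32 to 8.53, and KDR (5.70 to 5.06). In A375 the ranges of each sum overlapped (35.70 to 35.95 and 35.64 to 35.72 for immune, 25.47 to 25.78 and 25.37 to 25.71 for endothelial). The melanoma and melanocyte sum was higher with vemurafenib in A2058 (89.54 to 89.82 against 94.75 to 95.05) and slightly lower in A375 (77.33 to 77.47 against 76.81 to 77.25). The part of these shifts in the results was not tested. The ERK feedback gene DUSP6 fell in A375 (-1.69 ± 0.055, SE) and in A2058 (-2.63 ± 0.055), with adjusted p of 7.22e-11 and 4.55e-12. SPRY4, another such gene, fell by 3.91 ± 0.060 and 3.0 ± 0.060 on the log2 scale.

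**Figure D1:**
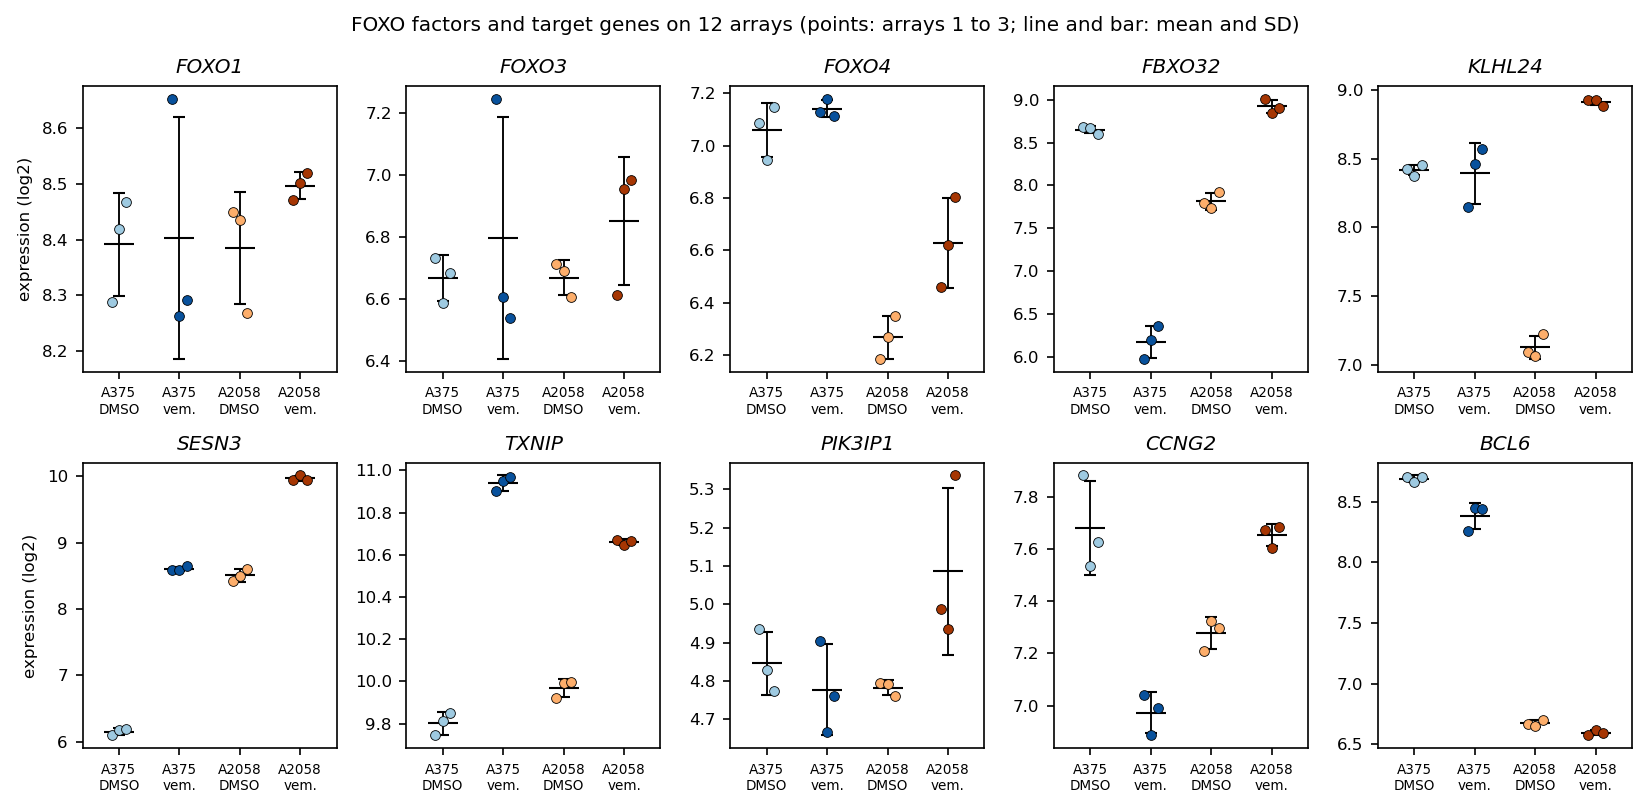
Expression (log2) of the 10 genes on each of the 12 arrays, 1 panel per gene with its own axis range; points are arrays, the horizontal line is the group mean and the bar the SD of 3 arrays. SESN3 and TXNIP are higher under vemurafenib in both lines, FBXO32 and CCNG2 are lower in A375 and higher in A2058, and 1 A375 vemurafenib array stands above the others for FOXO1 and FOXO3.

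The question for both lines was how vemurafenib changed these genes. In A375, 2 of the 10 rose (SESN3 and TXNIP) and 3 fell (FBXO32, CCNG2 and BCL6), against 17.7% of all genes called up and 19.3% called down (37.0% in either direction). In A2058, 7 rose (FOXO4, FBXO32, KLHL24, SESN3, TXNIP, PIK3IP1 and CCNG2) and none fell, against backgrounds of 14.6% up and 12.5% down (27.1% in all). The median difference of the 10 was -0.01 in A375 and 0.37 in A2058, while that of all genes was 0.00 and 0.01. A gene was called at a limma adjusted p under 0.05 over all genes. The 3 arrays of each group did not overlap for 5 of the 10 genes in A375 and 9 in A2058; over all genes this held for 43.6% and 40.6%. Both counts of calls in A375 were also obtained without A375 vemurafenib replicate 1, with 42.3% of all genes called.

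**Figure D2:**
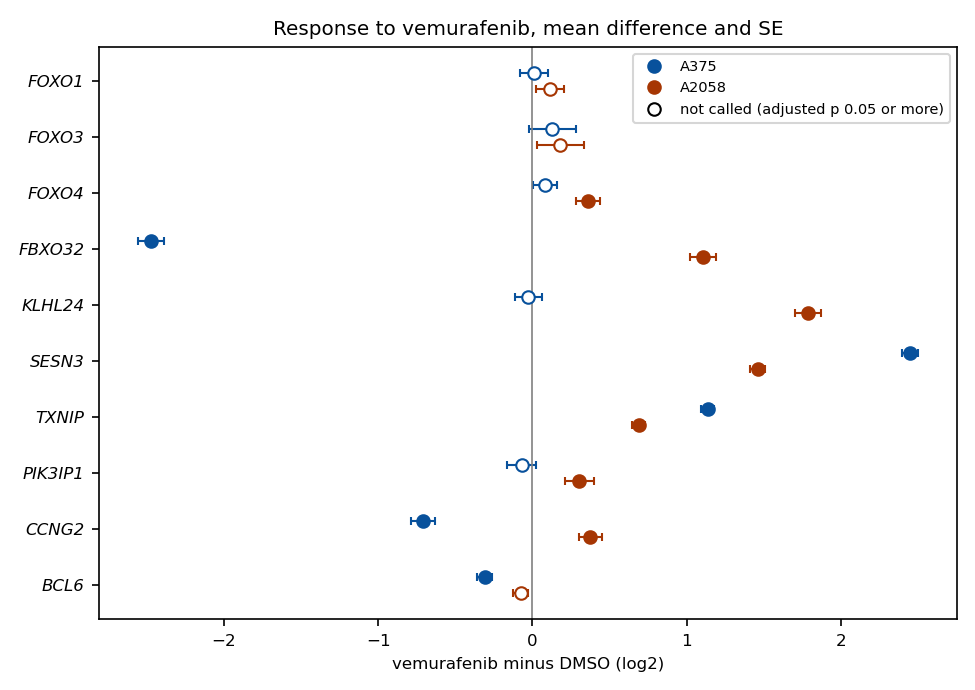
Difference between vemurafenib and DMSO (log2, with SE of the limma fit) for each of the 10 genes in A375 and in A2058; filled points were called at adjusted p under 0.05. FBXO32 lies at -2.47 in A375 and 1.10 in A2058, KLHL24 at -0.03 and 1.79, and SESN3 on the right in both.

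Of the 3 factors, FOXO4 was called up in A2058, and FOXO1 and FOXO3 were called in neither line. FOXO4, which is regulated by AKT like its relatives, read 7.09, 6.95 and 7.15 in A375 DMSO and 7.13, 7.18 and 7.12 in A375 vemurafenib, and 6.19, 6.27 and 6.35 in A2058 DMSO against 6.46, 6.62 and 6.81 in A2058 vemurafenib. The A375 groups overlapped, whereas each treated A2058 array lay above the A2058 controls. The difference was 0.08 ± 0.080 in A375 (adjusted p = 0.521) and 0.36 ± 0.080 in A2058 (adjusted p = 0.00415). The responses themselves differed by -0.28 ± 0.11, which did not pass (adjusted p = 0.0883) but did without A2058 vemurafenib replicate 1 (-0.36, adjusted p = 0.0183).

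FOXO1 ranged from 8.29 to 8.47 in A375 DMSO, 8.26 to 8.65 in A375 vemurafenib, 8.27 to 8.45 in A2058 DMSO and 8.47 to 8.52 in A2058 vemurafenib. FOXO3 ranged from 6.59 to 6.73, 6.54 to 7.25, 6.61 to 6.71 and 6.61 to 6.98 in the same order. The highest A375 vemurafenib value was that of replicate 1 for both genes. Neither was called in A375 (0.01 ± 0.091 and 0.13 ± 0.15, adjusted p = 0.952 and 0.612) or in A2058 (0.11 ± 0.091 and 0.18 ± 0.15, adjusted p = 0.481 and 0.505). Without A375 vemurafenib replicate 1 the A375 differences turned to -0.11 for FOXO1 (adjusted p = 0.175) and -0.10 for FOXO3 (adjusted p = 0.462), still not called.

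A second probe set, annotated with both FOXO3 and FOXO3B, its near-identical copy, was left out of the count since no single gene can be named for it; it was looked at after the values above were seen. It ranged from 9.26 to 9.47 in A375 DMSO, 9.66 to 9.79 in A375 vemurafenib, 9.59 to 9.63 in A2058 DMSO and 10.34 to 10.41 in A2058 vemurafenib. The groups did not overlap within either line. Fitted among all probe sets, it rose by 0.34 ± 0.055 in A375 (adjusted p = 0.000585) and 0.77 ± 0.055 in A2058 (adjusted p = 1.71e-06), and the responses differed by -0.43 ± 0.078 (adjusted p = 0.00217). The probe set with FOXO3 alone and the shared one therefore did not give the same call.

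SESN3 and TXNIP rose in both lines. SESN3, a sestrin that restrains mTOR signalling under stress, read 6.10, 6.18 and 6.19 in A375 DMSO and 8.59, 8.58 and 8.64 in A375 vemurafenib. In A2058 it read 8.42, 8.49 and 8.60 with DMSO and 9.94, 10.01 and 9.95 with vemurafenib. Treated A375 overlapped untreated A2058 (8.58 to 8.64 against 8.42 to 8.60), and treated A2058 was highest. The rise was 2.45 ± 0.050 (5.47-fold, adjusted p = 1.04e-12) in A375 and 1.46 ± 0.050 (2.75-fold, adjusted p = 4.26e-10) in A2058, a difference between the lines of 0.99 ± 0.071 (adjusted p = 3.41e-07).

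TXNIP, which binds thioredoxin and limits glucose uptake, read 9.74, 9.81 and 9.85 in A375 DMSO and 10.90, 10.95 and 10.97 in A375 vemurafenib. In A2058 it read 9.92, 9.99 and 10.00 with DMSO and 10.67, 10.65 and 10.67 with vemurafenib. No group overlapped another, and treated A375 was highest although untreated A375 was lowest. The rise was 1.14 ± 0.041 (2.20-fold, adjusted p = 2.23e-10) in A375 and 0.69 ± 0.041 (1.61-fold, adjusted p = 6.15e-08) in A2058, and the lines differed by 0.45 ± 0.058 (adjusted p = 6.84e-05).

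FBXO32 and CCNG2 moved in opposite directions in the lines. FBXO32 encodes atrogin, the substrate-binding subunit of a ubiquitin ligase known from muscle wasting. It read 8.68, 8.66 and 8.60 in A375 DMSO and fell to 5.98, 6.20 and 6.35 with vemurafenib, while in A2058 it went from 7.79, 7.73 and 7.92 to 9.01, 8.85 and 8.91. No group overlapped another, with treated A2058 at the top and treated A375 at the bottom. The difference was -2.47 ± 0.084 in A375 (5.55-fold lower, adjusted p = 1.14e-10) and 1.10 ± 0.084 in A2058 (2.15-fold higher, adjusted p = 5.56e-07). The responses differed by -3.58 ± 0.12 (adjusted p = 2.81e-10).

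CCNG2, an unconventional cyclin linked to cell cycle exit, read 7.88, 7.54 and 7.63 in A375 DMSO and 7.04, 6.89 and 6.99 in A375 vemurafenib. In A2058 it read 7.21, 7.33 and 7.30 with DMSO and 7.67, 7.60 and 7.69 with vemurafenib. The groups were apart within each line, and treated A2058 overlapped untreated A375. The difference was -0.71 ± 0.077 in A375 (adjusted p = 8.03e-06) and 0.38 ± 0.077 in A2058 (adjusted p = 0.00238), and the responses differed by -1.09 ± 0.11 (adjusted p = 6.98e-06). Over all genes, 2.61% were called down in A375 and up in A2058 with a called difference of the responses.

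KLHL24, a substrate adaptor of a cullin ubiquitin ligase, read 7.09, 7.06 and 7.22 in A2058 DMSO and 8.93, 8.93 and 8.89 in A2058 vemurafenib. In A375 it read 8.43, 8.38 and 8.45 with DMSO and 8.15, 8.46 and 8.57 with vemurafenib. The A2058 groups were far apart and the A375 groups overlapped. It rose by 1.79 ± 0.086 in A2058 (3.45-fold, adjusted p = 8.44e-09), against -0.03 ± 0.086 in A375 (adjusted p = 0.879), where the value became 0.10 (adjusted p = 0.171) without replicate 1 of the treated group. The responses differed by -1.81 ± 0.12 (adjusted p = 1.91e-07), and by -1.69 without that array.

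PIK3IP1, a membrane protein that inhibits PI3K, was dim, with values of 4.67 to 5.34 near the lower quartile of all gene values (4.78), where changes are compressed. It read 4.79, 4.79 and 4.76 in A2058 DMSO and 4.99, 4.93 and 5.34 in A2058 vemurafenib, and from 4.67 to 4.94 in A375. The A2058 groups did not overlap, with replicate 3 of the treated arrays highest. The A2058 difference was 0.30 ± 0.093 (adjusted p = 0.0282) and that in A375 -0.07 ± 0.093 (adjusted p = 0.661). The A2058 call was lost without A2058 vemurafenib replicate 3 (0.18, adjusted p = 0.0915) and without A2058 DMSO replicate 1, 2 or 3 (adjusted p = 0.0675, 0.0632 and 0.0793). The difference of the responses was -0.37 ± 0.13 (adjusted p = 0.0512) and passed without A375 vemurafenib replicate 1 (adjusted p = 0.0168) or A2058 vemurafenib replicate 1 or 2 (0.0443 and 0.0239).

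BCL6, a transcriptional repressor, read 8.71, 8.66 and 8.70 in A375 DMSO and 8.26, 8.45 and 8.44 in A375 vemurafenib. In A2058 it read 6.66, 6.65 and 6.71 with DMSO and 6.58, 6.62 and 6.60 with vemurafenib. The treated arrays lay below the controls in each line, by -0.31 ± 0.050 in A375 (adjusted p = 0.00027) and by -0.08 ± 0.050 in A2058, which was not called (adjusted p = 0.361). The responses differed by -0.23 ± 0.071 (adjusted p = 0.0249). That call was lost without A375 DMSO replicate 1 or 3 (adjusted p = 0.0583 and 0.0547), A2058 DMSO replicate 1 or 2 (0.0539 and 0.0555) or A2058 vemurafenib replicate 2 (0.06).

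In all, the responses of 6 of the 10 genes differed between the lines, 2 with the higher value in A375 (SESN3 and TXNIP) and 4 with the higher value in A2058 (FBXO32, KLHL24, CCNG2 and BCL6). Over all genes 13.1% differed in the first direction and 16.4% in the second, 29.5% in all.

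The untreated lines already differed. Under DMSO, 5 of the 10 genes were higher in A375 and 2 were higher in A2058, against 23.9% and 22.5% of all genes (46.4% in all). The arrays of the lines did not overlap for 7 of the 10, against 56.8% of all genes. BCL6 was higher in A375 by 2.02 ± 0.050 (adjusted p = 6.27e-12), KLHL24 by 1.29 ± 0.086 (adjusted p = 5.91e-08), FBXO32 by 0.83 ± 0.084, FOXO4 by 0.79 ± 0.080 and CCNG2 by 0.40 ± 0.077. SESN3 was lower in A375 by -2.35 ± 0.050 (adjusted p = 1.36e-12) and TXNIP by -0.17 ± 0.041 (adjusted p = 0.00436). FOXO1, FOXO3 and PIK3IP1 were not called (0.0071, -0.0016 and 0.065).

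With vemurafenib the order of the lines turned for 4 genes, since the sign of the called difference changed. FBXO32 was now lower in A375 by -2.74 ± 0.084 (adjusted p = 2.92e-11), CCNG2 by -0.68 ± 0.077 (adjusted p = 7.39e-06) and KLHL24 by -0.52 ± 0.086 (adjusted p = 0.000226), while TXNIP was higher by 0.28 ± 0.041 (adjusted p = 8.08e-05). BCL6 (1.78 ± 0.050) and FOXO4 (0.51 ± 0.080) were still higher in A375, and SESN3 (-1.36 ± 0.050) still lower. Counts were 3 genes higher and 5 lower in A375, against 22.7% and 24.2% of all genes (46.9% in all). The arrays of the lines did not overlap for 8 of the 10, against 51.2% of all genes. PIK3IP1 was called lower (-0.31 ± 0.093, adjusted p = 0.015), a call lost without A375 vemurafenib replicate 2 (adjusted p = 0.0639) or A2058 vemurafenib replicate 3 (0.0503). Without A375 vemurafenib replicate 1, FOXO1 (-0.22, adjusted p = 0.00973) and FOXO3 (-0.28, adjusted p = 0.0216) were also called lower in A375. The labels give no array date, so a separate run of the lines and the lines themselves cannot be told apart in these 2 comparisons.

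**Figure D3:**
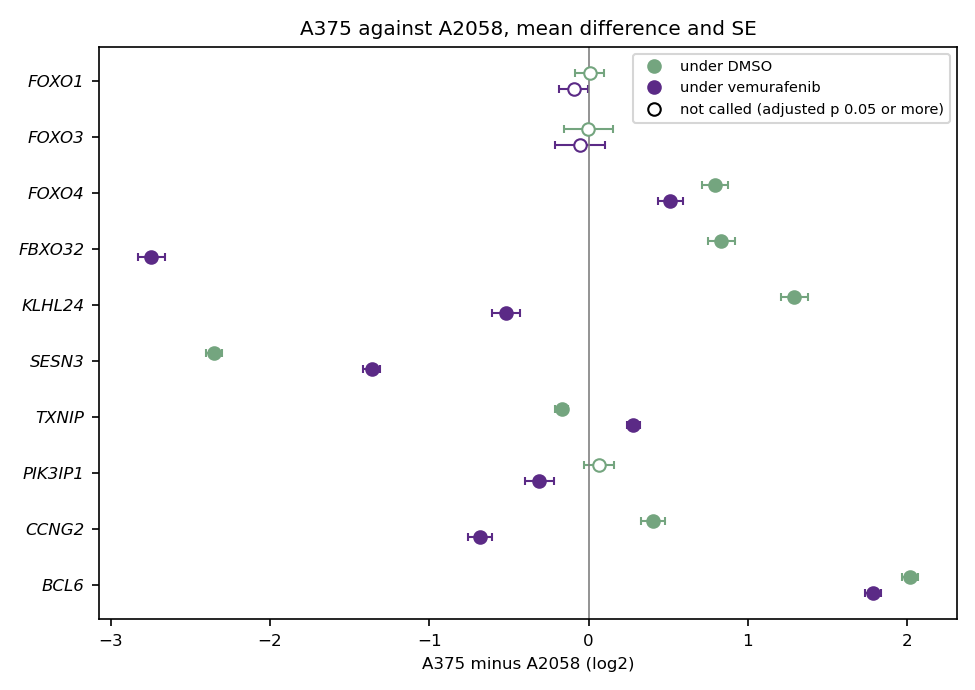
Difference between A375 and A2058 (log2, with SE of the limma fit) for the 10 genes under DMSO and under vemurafenib; filled points were called. FBXO32 (0.83 and -2.74), KLHL24 (1.29 and -0.52), CCNG2 (0.40 and -0.68) and TXNIP (-0.17 and 0.28) lie on opposite sides of 0 in the 2 conditions.

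A list of 35 further genes known as FOXO targets, all measured, was described next. In A375, 6 rose and 9 fell (17.1% and 25.7%, against 17.7% and 19.3% of all genes), with a median difference of 0.00, the same as for all genes. In A2058, 16 rose and 3 fell (45.7% and 8.57%, against 14.6% and 12.5%), with a median of 0.11 against 0.01 for all genes. The response was lower in A375 than in A2058 for 16 genes (45.7%, against 16.4% of all genes) and higher for 3 (8.57%, against 13.1%). Without A375 vemurafenib replicate 1 the counts were 8 and 12 in A375 and 16 and 4 in A2058. Over all genes, 42.3% and 32.34% were then called, against 37.0% and 27.1% with all arrays.

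The largest rises in A375 were those of the superoxide dismutase SOD2 (1.01 ± 0.067; 0.31 ± 0.067 in A2058, also called) and the death ligand TNFSF10 (0.88 ± 0.064; -0.04 ± 0.064 in A2058, not called). In A2058 they were those of BCL2L11, the pro-apoptotic protein BIM (0.84 ± 0.064; 0.09 ± 0.064 in A375, not called), and PPARGC1A, a coactivator of mitochondrial biogenesis (0.83 ± 0.064; -0.09 ± 0.064 in A375, not called). The mitophagy receptor BNIP3 (-1.78 ± 0.074 and -1.03 ± 0.074) and the pyruvate dehydrogenase kinase PDK4 (-1.15 ± 0.058 and -0.88 ± 0.058) fell most in both A375 and A2058. The remaining fall in A2058 was that of the cell cycle inhibitor CDKN1A (-0.21 ± 0.071, adjusted p = 0.0437), which rose in A375 (0.40 ± 0.071); the A2058 call was lost without any of 7 arrays, at adjusted p up to 0.19.

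Like FBXO32 and CCNG2, 5 of the 35 genes fell in A375 and rose in A2058 with a called difference (14.3%, against 2.61% of all genes); they were named after their values were seen. The mitophagy kinase PINK1 went by -0.36 ± 0.052 and 0.50 ± 0.052, the antiproliferative BTG1 by -0.49 ± 0.034 and 0.38 ± 0.034, and the repressor HBP1 by -0.30 ± 0.047 and 0.63 ± 0.047. The MYC antagonist MXI1 went by -0.30 ± 0.048 and 0.41 ± 0.048, and the autophagy gene GABARAPL1 by -0.20 ± 0.046 and 0.26 ± 0.046. CDKN1A was the gene of the list that went the other way (2.86%, against 1.8% of all genes). That share was 9.09% for binding and modifying proteins and 0% for PI3K and AKT signalling and for relatives and partners.

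**Figure D4:**
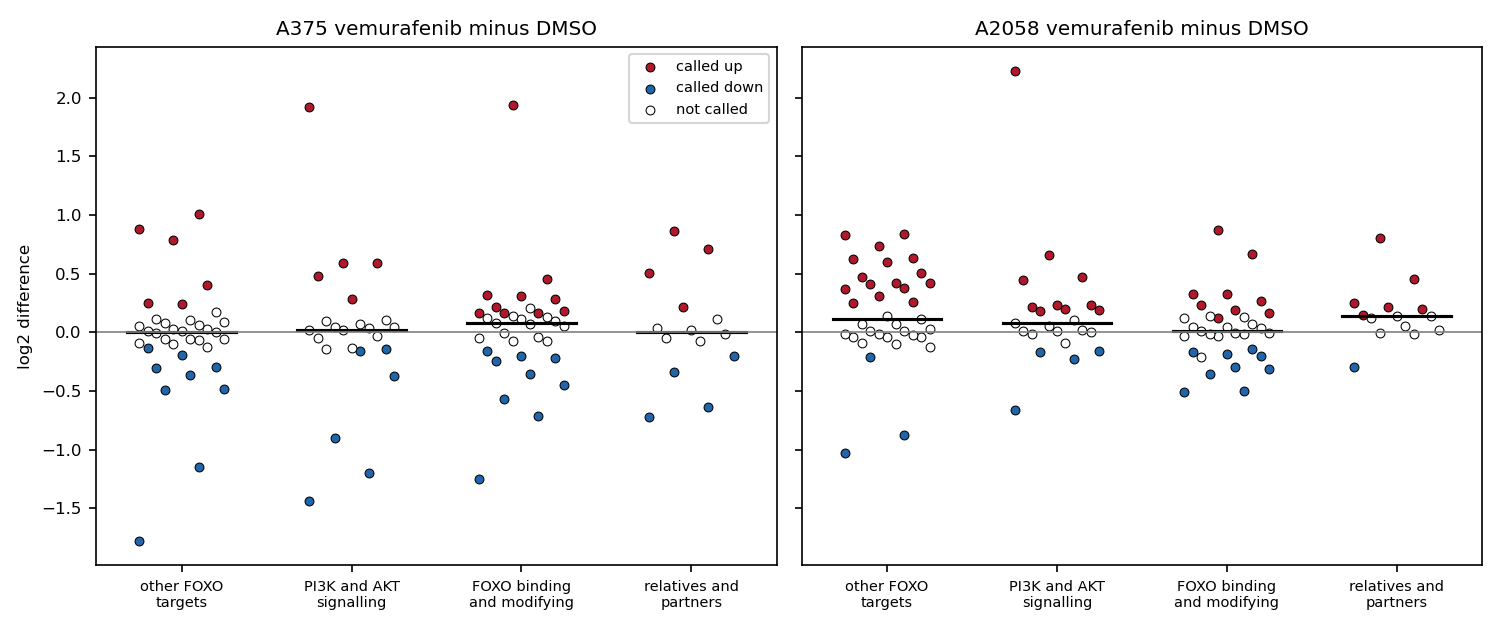
Differences between vemurafenib and DMSO (log2) for the measured genes of 4 lists in A375 (left) and A2058 (right); each point is a gene, red called up, blue called down and white not called, and the black line is the list's median. In the list of other FOXO targets 6 points are called up and 9 down in A375, against 16 and 3 in A2058.

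Upstream of FOXO, 23 of 28 listed genes of PI3K and AKT signalling were measured. In A375, 5 rose and 6 fell (21.7% and 26.1%, against 17.7% and 19.3% of all genes), with a median of 0.02. In A2058, 10 rose and 4 fell (43.5% and 17.4%, against 14.6% and 12.5%), with a median of 0.08; 2 fell without A2058 DMSO replicate 1 or 3 or without A2058 vemurafenib replicate 1, 2 or 3. The regulatory PI3K subunit PIK3R1 rose most in A375 (1.92 ± 0.037; 0.20 ± 0.037 in A2058) and its relative PIK3R3 most in A2058 (2.23 ± 0.087; 0.59 ± 0.087 in A375). IGF1R, the IGF receptor, fell in both (-1.44 ± 0.050 and -0.66 ± 0.050), and the catalytic subunit PIK3CD fell in A375 (-1.20 ± 0.053; -0.09 ± 0.053 in A2058, not called). PHLPP1, a phosphatase of AKT, rose in A2058 (0.66 ± 0.091) and fell in A375 (-0.38 ± 0.091). The adaptor IRS1 fell in A2058 (-0.23 ± 0.063, adjusted p = 0.0164), a call lost without A2058 DMSO replicate 3 or A2058 vemurafenib replicate 1 or 2 (adjusted p up to 0.0764). Without A375 vemurafenib replicate 1 the A375 counts were 7 up and 7 down, with 42.3% of all genes called.

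Of 34 listed genes whose products bind or modify FOXO proteins, 33 were measured. Rises and falls numbered 10 and 9 in A375 (30.3% and 27.3%, against 17.7% and 19.3% of all genes). Without A375 vemurafenib replicate 1 they numbered 14 and 8, with 42.3% of all genes called. They numbered 9 and 9 in A2058 (27.3% each, against 14.6% and 12.5%), where the rises were 4 without A2058 DMSO replicate 1 or A2058 vemurafenib replicate 3 and 5 without A2058 vemurafenib replicate 1. The medians were 0.08 and 0.01. The acetyltransferase KAT2B rose in both (1.94 ± 0.049 and 0.67 ± 0.049), the deacetylase SIRT2 rose most in A2058 (0.87 ± 0.045; 0.18 ± 0.045 in A375), and the ubiquitin ligase MDM2 rose in A375 (0.45 ± 0.060) and fell in A2058 (-0.31 ± 0.060). The AMPK subunit PRKAA2 (-1.25 ± 0.064 and -0.50 ± 0.064) and the arginine methyltransferase PRMT1 (-0.45 ± 0.044 and -0.51 ± 0.044) fell in both. CDK2 fell in A375 (-0.71 ± 0.11), and its rise in A2058 (0.32 ± 0.11, adjusted p = 0.0385) was lost without any of 8 arrays, at adjusted p up to 0.133.

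Among 17 relatives and partners of the genes, 14 were measured. In A375, 4 rose and 4 fell (28.6% each, against 17.7% and 19.3% of all genes), with a median of 0.00. In A2058, 6 rose and 1 fell (42.9% and 7.14%, against 14.6% and 12.5%), with a median of 0.14; 3 rose without A2058 DMSO replicate 1 or A2058 vemurafenib replicate 1. MLXIP, the glucose-sensing factor known to drive TXNIP, rose in both (0.86 ± 0.059 and 0.80 ± 0.059), and so did ARRDC4, a relative of TXNIP known to share that control (0.71 ± 0.048 and 0.45 ± 0.048). Of the other arrestin-like genes, ARRDC2 (-0.72 ± 0.046) and ARRDC1 (-0.64 ± 0.055) fell in A375 and were not called in A2058 (0.02 and 0.06). TXN, the thioredoxin that TXNIP binds, fell in A375 (-0.34 ± 0.085) and in A2058 (-0.30 ± 0.085, adjusted p = 0.02), the second call being lost without A2058 DMSO replicate 1 or A2058 vemurafenib replicate 1 or 2 (adjusted p up to 0.0945). The remaining calls in A375 were rises of the sestrin SESN2 (0.51 ± 0.079) and of ARRDC3 (0.22 ± 0.066) and a fall of the cyclin CCNG1 (-0.20 ± 0.065); the last 2 were each lost without any of 4 arrays, at adjusted p up to 0.0868 and 0.0747. CCNG1 went the other way in A2058, where it rose by 0.21 ± 0.065 (adjusted p = 0.028), a call lost without any of 5 arrays at adjusted p up to 0.119. SESN2 (0.12 ± 0.079) and ARRDC3 (0.14 ± 0.066) were not called in A2058.

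The genes whose profile over the 12 arrays was most like that of each of the 10 were found by Pearson correlation across all named genes. The arrays share 2 lines and 2 treatments, so these values describe likeness of a pattern over 4 groups as well as over single arrays. FOXO1 and FOXO3 were called in no comparison with all arrays, and both were highest on A375 vemurafenib replicate 1 (8.65 and 7.25). The part of that array in their correlations was not tested. For SESN3 they were MATN2 (r = 0.998) and LINC00518 (0.9968), for TXNIP CERT1 (0.995) and HPGD (0.9918), and for BCL6 IGF2BP1 (0.9985) and MEOX2 (0.9975). For FBXO32 they were DIAPH2 (0.9851) and DRC4 (0.9757), for KLHL24 RAB31 (0.9847) and YPEL5 (0.9831), and for CCNG2 C14orf93 (0.9538) and BOK (0.9525). For FOXO4 they were ROMO1 (0.9809) and ZNF626 (0.9799), for FOXO1 SOX17 (0.9685) and MIR425 (0.9582), for FOXO3 PRDM12 (0.9585) and KBTBD11 (0.9582), and for PIK3IP1 TSPAN9 (0.9058) and TRPM1 (0.8894).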

How the data were processed

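The authors deposited log2 expression values for 32321 probe sets on each of 12 arrays of total RNA; these ran from 3.24 to 13.08 with like quartiles and were not scaled again. Per the submitters' processing notes R 3.0.1 and affy were used; method of summary, correction of background and genome build were not given in the sources used here. Of these probe sets, 19158 carry a single symbol in the platform annotation, 1388 carry more and 11775 are unnamed; Entrez numbers tied symbols to the RefSeq table of GRCh38.p14 (19128 matched). The probe set with the highest mean was kept per gene. The 12 arrays entered 1 limma 3.58.1 model (R 4.3.3) with 4 group means, 8 residual and 3.98 prior degrees of freedom, two-sided, with Benjamini-Hochberg adjustment over 18404 genes. Each ± is an SE of this model. The model was also run on simulated data, with results not given here. The genes, lists and tests were chosen with earlier results of these data known. Named were the 10 genes, for each list the 2 largest rises and falls per line, small counts in full, DUSP6 and SPRY4, and the 2 most alike genes. Alternatives left out each array, blocked on replicate number, weighted arrays, or changed the normalization, probe set choice, filter, groups fitted, prior or threshold. The number of arrays limits the precision.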

Additional observations from a re-analysis of the deposited data

Results flagged for a closer look

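The response to vemurafenib differed between A375 and A2058, by the limma test of the difference itself, for 6 of the 10 genes. Over all genes this held for 29.5%. Given as the A375 response minus the A2058 response on the log2 scale, the difference was -3.58 for FBXO32, -1.81 for KLHL24, -1.09 for CCNG2 and -0.23 for BCL6. It was 0.99 for SESN3 and 0.45 for TXNIP, both of which rose in both lines. The BCL6 call was lost with the replicate number as a block, at adjusted p under 0.01, and on leaving out certain single arrays.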

How the results depend on the processing

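All 10 counts of called genes among the FOXO factors and targets were within 1.5 times their value under each alternative tried. Over the left-out arrays the rises in A2058 ran from 6 to 7. Response differences called down ran from 3 to 6 (26.58% to 36.07% of all genes called in either direction). Genes called lower in treated A375 than in treated A2058 ran from 4 to 7 (43.54% to 52.59%). The other counts did not move. Of the 50 single differences, 37 kept direction and side of the threshold throughout. Differences that turned sign are given first; with the exception of FOXO3 between treated lines, called at -0.28 without A375 vemurafenib replicate 1, they were called under no alternative. In A375, FOXO1 ran from -0.11 to 0.080, FOXO3 from -0.095 to 0.26 and KLHL24 from -0.11 to 0.098 over the left-out arrays, and with array weights they were -0.083, -0.049 and 0.082; KLHL24 was 0.011 after quantile normalization. Over the left-out arrays the FOXO3 response difference ran from -0.28 to 0.077 and the line differences from -0.051 to 0.059 (FOXO1, DMSO), -0.034 to 0.039 (FOXO3, DMSO) and -0.28 to 0.075 (FOXO3, vemurafenib); FOXO1 under DMSO was -0.028 with array weights. With array weights FOXO1 was called lower in treated A375 (-0.19, adjusted p = 0.0195). The PIK3IP1 call in A2058 was lost when all probe sets were tested (adjusted p = 0.0529). Its response difference passed with array weights, quantile normalization, a filter on dim genes, or a trended robust prior (0.0152, 0.0254, 0.0388 and 0.0321). Its line difference under vemurafenib was lost with only those groups (0.0631). At adjusted p under 0.01, the PIK3IP1 calls (0.0282 and 0.015) and the BCL6 response difference (0.0249) were lost. With the replicate number as a block, the BCL6 response difference had adjusted p = 0.063 and no other call among the 10 genes changed. Same-numbered deviations correlated at -0.20, 0.10 and -0.13 in A375 and 0.02, -0.03 and -0.20 in A2058. Differently numbered ones ran from -0.28 to 0.26 in A375 and from -0.22 to 0.21 in A2058. Deviations from a mean of 3 arrays depend on each other, so these values cannot tell whether equal numbers mark paired samples. List counts that moved by over 1.5 times were, for binding and modifying proteins, rises in A375 (10; 16 with array weights or quantile normalization) and in A2058 (9; 5 with the replicate block, 4 at 0.01, 4 to 11 over left-out arrays). The others were PI3K and AKT falls in A2058 (4; 1 at 0.01, 2 to 4 over left-out arrays) and, for relatives and partners in A2058, rises (6; 3 at 0.01, 3 to 7 over left-out arrays) and falls (1; 0 at 0.01, 0 to 1 over left-out arrays). Over the left-out arrays, the share of all genes called in the response ran from 32.84% to 42.3% in A375 and from 22.67% to 32.34% in A2058. In A375 that share was 44.16% with array weights and 38.44% with quantile normalization, against 37.04% in the main fit. In A2058 that share was 24.57% with the replicate block and 19.81% at adjusted p under 0.01, against 27.12% in the main fit. The cause of the moved counts was not tested.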
